A study of Mus musculus with 18 samples.

Results

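Uninduced cultures of a C2C12 clone that carries an inducible human DUX4 transgene were compared, gene by gene, with uninduced cultures of a C2C12 clone that carries an inducible luciferase transgene. The comparison used 6 of the 18 libraries of the series, 3 from each clone, chosen by the line and treatment in the labels. The series set induced against uninduced cultures of 3 clonal lines, in order to find the genes that mouse Dux and human DUX4 change in mouse myoblasts. The question here was how far the lines already differed with no doxycycline. The human DUX4 line carried a codon-altered, doxycycline-inducible human DUX4 and was harvested at the 36 h time point without doxycycline. The mouse Dux line, used as another line beside the comparison, carried a codon-altered mouse Dux and had the same treatment. The luciferase line carried doxycycline-inducible firefly luciferase and was also harvested at 36 h without doxycycline. The luciferase clone was also treated with doxycycline at 2 µg/ml for 36 h in another 3 cultures, which stand in for its uninduced cultures in some alternatives below. All cultures grew in medium with fetal bovine serum and puromycin at 2.6 µg/ml, which selects for cells with the transgene. Each transgene was represented by 1 clonal line, and the 3 libraries of a line came from separate cultures of that clone. Clone, line and transgene therefore cannot be told apart, and the p-values below measure the spread between cultures of the same clone.

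C2C12 is a line of myoblasts derived from mouse muscle satellite cells. Proliferating myoblasts express the transcription factors MyoD and Myf5. On leaving the cell cycle they switch on myogenin and MEF2 factors, which drive the genes of the contractile apparatus, and then fuse into myotubes. High serum normally keeps these cells dividing, and insulin-like growth factor signalling promotes their differentiation.

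The human DUX4 libraries held 15743008, 15238304 and 12871469 counts, and the luciferase libraries held 17179642, 16372351 and 14418920 counts. Replicate cultures were very alike. Between replicates, chi-square divided by its degrees of freedom was 1.63 to 2.39 in the human DUX4 line and 1.41 to 1.63 in the luciferase line. In the mouse Dux line, replicate 1 stood apart from the others, at 4.96 and 5.04, against 1.25 between the remaining pair, and its effect on the comparison is given with the alternatives. The 10 most abundant genes took 4.10% to 4.24% of the counts in human DUX4 libraries and 6.06% to 6.12% in luciferase libraries. Levels below are CPM, which are counts scaled to library size with TMM factors, and differences are log2 fold changes of the human DUX4 line over the luciferase line, so a negative value means lower in the human DUX4 line.

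The lines differed in most of the genes that could be measured. Of 12769 genes tested with edgeR's quasi-likelihood test, 10276 (80.5%) passed an adjusted p of 0.05 and are called here. Of these, 5020 (39.3% of the genes tested) were higher in the human DUX4 line and 5256 (41.2%) were lower. A difference of at least 2-fold was called for 3419 genes (26.8%), with 1412 (11.1%) higher and 2007 (15.7%) lower. At 4-fold the calls were 571 higher and 1014 lower, and at 16-fold they were 168 higher and 480 lower. The larger differences therefore lay more often on the lower side, while the median over all genes tested was -0.03. The 3 human DUX4 libraries did not overlap the 3 luciferase libraries in 10495 of the genes tested (82.2%). Among genes called at least 2-fold this share was 99.4%, so a lack of overlap adds little for genes named by a small p. With such shares, a member of any gene list is likely to be called, and the lists below are read by size and direction against these background values.

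**Figure D1:**
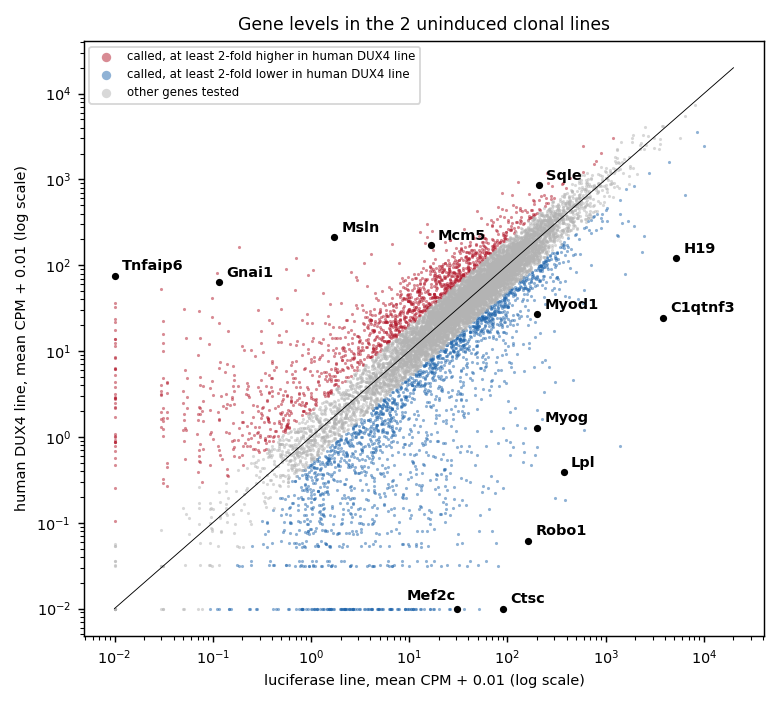
Mean CPM of each gene tested in the uninduced human DUX4 line (vertical axis) against the uninduced luciferase line (horizontal axis), both on log scales with 0.01 CPM added, with genes called at least 2-fold higher (1412, red) or lower (2007, blue). The line marks equal levels, and genes with no count in one line lie along the left or lower edge.

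The marker genes of the pair of clones differed between 7.51-fold and 938-fold. Mesothelin (Msln, chr17:25748613-25754378), a membrane glycoprotein of mesothelial cells, had 222.8, 209.5 and 204 CPM in the human DUX4 line and 1.789, 1.642 and 1.717 CPM in the luciferase line. Its log2 difference was 6.94 (SE 0.0782, edgeR adjusted p = 3.91e-28). The mouse Dux line had 186.3, 201 and 194 CPM, so the high level was found in both lines with a double-homeobox transgene, which differed from each other by 0.13 (adjusted p = 0.00392).

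Gnai1 (chr5:18265135-18360413), an inhibitory G protein alpha subunit, was graded over the lines. It had 63.05, 59.74 and 66.63 CPM in the human DUX4 line, 9.073, 9.171 and 9.098 CPM in the mouse Dux line, and 0.1192, 0.1263 and 0.07156 CPM in the luciferase line. The log2 difference was 9.09 (SE 0.153, adjusted p = 8.51e-25) and rested on 5 counts over the luciferase libraries. No library of one line overlapped another line.

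The other markers were lower in the human DUX4 line. Lipoprotein lipase (Lpl, chr8:68880555-68906932), which frees fatty acids from circulating lipoproteins, had 0.4485, 0.4601 and 0.2332 CPM in the human DUX4 line and 358.8, 390.4 and 369.3 CPM in the luciferase line, a difference of -9.87 (SE 0.0945). C1qtnf3 (chr15:10952119-10980162), a secreted protein of the C1q and TNF-related family, had 23.64, 24.65 and 25.42 CPM against 3730, 3924 and 3948 CPM in the luciferase line, a difference of -7.30 (SE 0.0519). Both genes also fell well below the luciferase line in the mouse Dux line, which averaged 2.52 CPM for Lpl and 78.9 CPM for C1qtnf3.

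H19 (chr7:142575530-142578146), a maternally expressed non-coding RNA, had 119.6, 119.4 and 121.8 CPM in the human DUX4 line, 1184, 1096 and 1097 CPM in the mouse Dux line, and 5175, 5254 and 5346 CPM in the luciferase line. Its difference of -5.45 (SE 0.0408, adjusted p = 2.53e-31) separated all 9 libraries by line. Myod1 (chr7:46376474-46379092), the gene of MyoD, had 27.1, 26.42 and 27.29 CPM in the human DUX4 line, 133.4, 122.5 and 124.1 CPM in the mouse Dux line, and 205.3, 202.8 and 198.7 CPM in the luciferase line. Its difference was -2.91 (SE 0.0461, adjusted p = 2.72e-25). The human DUX4 line was thus the lowest of the 3 lines in both genes, and it differed from the mouse Dux line by -3.23 for H19 (adjusted p = 2.73e-27) and by -2.23 for Myod1 (adjusted p = 2.81e-22).

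**Figure D2:**
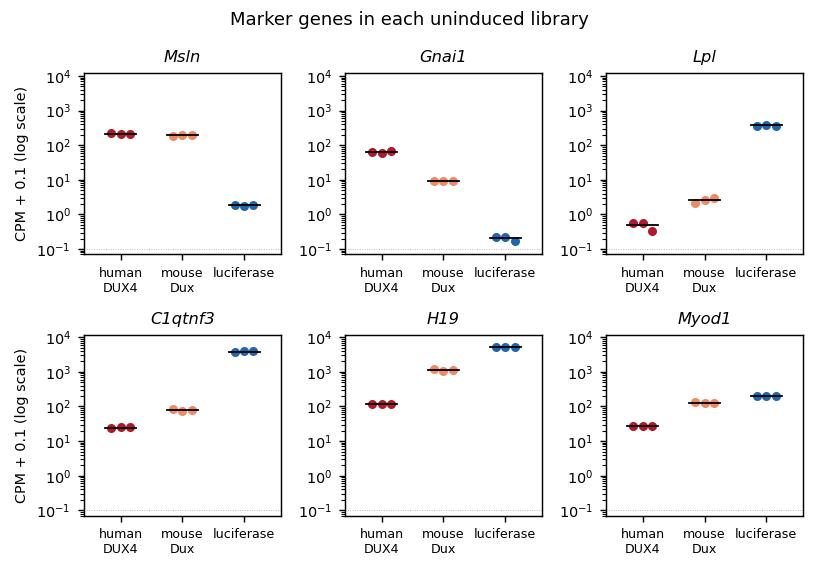
CPM of 6 marker genes in each uninduced library (points, log scale with 0.1 CPM added) with the line mean (bar), for the human DUX4, mouse Dux and luciferase lines from left to right. Msln and Gnai1 lie higher in every human DUX4 library than in any luciferase library, and Lpl, C1qtnf3, H19 and Myod1 lie lower.

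Genes of DNA replication were higher in the human DUX4 line without exception. All 50 S-phase genes on the list were measured well enough to test, all 50 were called higher, and 46 were at least 2-fold higher, with a median log2 difference of 2.03 against -0.03 over all genes tested. The members together summed to 4290, 4300 and 4250 CPM in the human DUX4 libraries and to 1110, 1080 and 1120 CPM in the luciferase libraries. Mcm5, a subunit of the replicative helicase, had 172.2, 169.6 and 175.3 CPM in the human DUX4 line and 18, 15.85 and 15.96 CPM in the luciferase line (log2 difference 3.37, SE 0.0525, adjusted p = 1.97e-25). Mcm3, another helicase subunit, had 149.9, 155.1 and 151.1 CPM against 17.59, 16.67 and 17.68 CPM in the luciferase line. Pcna, the sliding clamp of DNA polymerases, averaged 347.4 ± 3.09 CPM in the human DUX4 line and 78.95 ± 3.80 CPM in the luciferase line (SD, n = 3 each). Rrm2, the small subunit of ribonucleotide reductase, differed by 2.14 (SE 0.0384). The libraries of the lines did not overlap for any of these genes, which held for 99.4% of all genes called at least 2-fold.

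Genes of mitosis moved the same way. Of 51 tested G2 and M-phase genes, 50 were called higher, 47 of them at least 2-fold, with a median of 1.95. Psrc1, a spindle-associated protein, was the exception at -0.59 (SE 0.0833, edgeR adjusted p = 5.66e-07). Top2a, the topoisomerase that untangles chromosomes, had 660.3, 650.5 and 648.5 CPM in the human DUX4 line and 111.7, 107.7 and 114.1 CPM in the luciferase line (2.56, SE 0.0433). Birc5, or survivin, part of the chromosomal passenger complex, had 148.1, 151.2 and 150.6 CPM against 23.31, 23.18 and 23.76 CPM in the luciferase line. Ccnb1, the mitotic cyclin B1, differed by 2.15 (SE 0.0430), and Anln, an actin-binding protein of the cleavage furrow, by 2.35 (SE 0.0452). The mouse Dux line lay between the others for Mcm5, Pcna, Top2a, Birc5 and Ccnb1.

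Each of the promoters below belongs to the member with the smallest p in its list whose promoter holds the motif searched, and shows where the matches lie. The sequences are from RefSeq (GRCm38.p6), 300 bases on the minus strand, from 250 bases before a start that the promoter table gives for the gene, and capitals mark the motif on either strand. The Mcm3 promoter (chr1:20820263-20820562) holds 1 match of GGCGGGAA, the letters of an E2F site, and the Top2a promoter (chr11:99024140-99024439) holds 8 matches of CCAAT, the element bound by NF-Y, or TTTGAA, the cell-cycle homology region.
Mcm3: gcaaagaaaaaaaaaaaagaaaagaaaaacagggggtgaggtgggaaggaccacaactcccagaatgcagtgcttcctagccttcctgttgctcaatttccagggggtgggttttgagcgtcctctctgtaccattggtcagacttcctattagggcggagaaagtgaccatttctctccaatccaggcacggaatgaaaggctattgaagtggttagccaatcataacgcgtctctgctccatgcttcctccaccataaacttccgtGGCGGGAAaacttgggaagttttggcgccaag
Top2a: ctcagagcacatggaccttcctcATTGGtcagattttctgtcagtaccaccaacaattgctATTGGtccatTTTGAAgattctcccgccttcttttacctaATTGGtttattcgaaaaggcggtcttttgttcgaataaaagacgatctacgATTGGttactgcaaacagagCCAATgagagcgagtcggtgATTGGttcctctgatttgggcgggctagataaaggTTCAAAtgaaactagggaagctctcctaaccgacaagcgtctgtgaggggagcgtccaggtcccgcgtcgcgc

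Over the lists, GGCGGGAA was present in 9 of the 36 S-phase genes with a promoter in the table, against 4.7% of the 10173 genes tested with a promoter and 2.2% of all 32851 promoters. TTTGAA was present in 31 of 42 G2 and M-phase genes (73.8%), against 14.2% of genes tested and 17.9% of all promoters. CCAAT was present in 34 of the 42 (81.0%), against 43.6% and 37.4%. A gene counted when any of its promoters held the motif, while the share of all promoters counted each promoter singly, so these shares differ in unit. Both strands were searched, neighbouring matches of different motifs may share end bases, and a match describes letters and not binding.

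Regulators of the cell cycle were split. Of 34 tested CDK inhibitors, retinoblastoma family members and p53 targets, 14 were called higher and 18 lower, with 6 and 9 at least 2-fold. Ccnd1, the G1 cyclin D1, had 330.4, 333.2 and 335.6 CPM in the human DUX4 line and 68.14, 66.88 and 69.99 CPM in the luciferase line (2.29, SE 0.0383). Cdkn1a, the CDK inhibitor p21, had 137.3, 131.2 and 136.5 CPM against 490.4, 480.4 and 501.9 CPM in the luciferase line (-1.86, SE 0.0354). Both genes separated the lines with no overlap, as did 99.4% of all genes called at least 2-fold. Trp53inp1, a p53-induced nuclear protein, and Eda2r, a death-domain receptor induced by p53, were also lower, by -2.73 and -2.05. Cdkn2a and Cdkn2b, the INK4 inhibitor genes, had no count in either line.

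The size of the cell-cycle difference depended on which luciferase cultures it was measured against. With doxycycline-treated luciferase libraries in place of the uninduced ones, the medians were 2.95 for S-phase genes and 4.40 for G2 and M-phase genes, with the same direction. Cell density at harvest, not given in the sources used here, was not tested for its part in the difference. In these bulk libraries, more cycling cells in the human DUX4 line and more RNA of these genes per cell cannot be told apart.

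Most transcription factors of the muscle programme were lower in the human DUX4 line. Of 35 myogenic transcription factors and co-regulators matched, 24 were tested, of which 19 were called lower and 4 higher, with 12 and 1 at least 2-fold and a median of -0.93. Myog, the gene of myogenin, had 0.897, 1.512 and 1.399 CPM in the human DUX4 line, 1.658, 2.757 and 2.769 CPM in the mouse Dux line, and 207.5, 197.5 and 197.8 CPM in the luciferase line (-7.31, SE 0.0908, adjusted p = 2.73e-27). Mef2c, a MADS-box factor that acts with myogenin, had no count in any human DUX4 or mouse Dux library and 29.21, 31.58 and 31.77 CPM in the luciferase libraries. It was at least 448-fold lower in the human DUX4 line, taking 3 counts summed over its libraries as the floor.

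Myf5, the early myogenic factor, ordered the lines differently. It had 7.112, 7.295 and 7.075 CPM in the human DUX4 line, 0.349, 0.1199 and 0.3296 CPM in the mouse Dux line, and 106.4, 112.7 and 105.8 CPM in the luciferase line. The human DUX4 line was lower than the luciferase line by -3.92 (SE 0.0665) and higher than the mouse Dux line by 4.77 (adjusted p = 5.48e-15). Some further members were picked out after their values were seen. Twist1, a basic helix-loop-helix factor of mesenchyme, was at 0 in the human DUX4 and mouse Dux lines and had 5.902, 5.999 and 6.584 CPM in the luciferase line. Id3, an inhibitor of MyoD partners, was lower by -2.14, and Tead4, a partner of YAP, was the member at least 2-fold higher, at 1.30. Pax7, the satellite cell factor, was near 0 in both lines, at 0.0219 and 0.167 CPM, against 15.6 CPM in the mouse Dux line.

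The contractile genes had the largest median difference in size of the 21 lists, apart from the mesothelial list with 3 tested members. Of 56 sarcomere and contractile genes, 50 were tested, and 46 of these were called lower, all 46 at least 2-fold, while 4 were called higher by less than 2-fold. The median was -5.00, or -4.87 with the 4 members that had no count in the human DUX4 line set to their bound. The list summed to 5150, 5050 and 5140 CPM in the human DUX4 libraries, 4530, 4470 and 4400 CPM in the mouse Dux libraries, and 11600, 11500 and 11900 CPM in the luciferase libraries. With doxycycline-treated luciferase libraries the median was -3.9996.

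Myh3, the embryonic myosin heavy chain, had 0.6407, 0.5258 and 1.088 CPM in the human DUX4 line and 197, 190.5 and 207.8 CPM in the luciferase line (-8.06, SE 0.0988). It did not pass the test between the human DUX4 and mouse Dux lines (-0.01, adjusted p = 0.981). Mylpf, the fast regulatory myosin light chain, had 1.602, 2.103 and 2.41 CPM against 194.9, 194.4 and 209 CPM in the luciferase line (-6.62, SE 0.0851). Actn3, the alpha-actinin of fast fibres, had 17.75, 17.22 and 16.17 CPM against 300.9, 297.4 and 301.1 CPM in the luciferase line (-4.13, SE 0.0453). For these genes no human DUX4 culture overlapped a luciferase culture, as for 99.4% of all genes called at least 2-fold. Trdn, the gene of triadin in the calcium release complex, had no count in the human DUX4 line against 50.79, 51.72 and 52.17 CPM, at least 750-fold lower.

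Myl1, the alkali light chain of fast myosin, had 6.087, 7.23 and 6.453 CPM in the human DUX4 line, 0.4362, 0.2997 and 0.4615 CPM in the mouse Dux line, and 259.9, 264.4 and 264.9 CPM in the luciferase line (-5.32, SE 0.0563, adjusted p = 1.37e-28). It had the smallest p of the list. Like Myf5, it stood higher in the human DUX4 line than in the mouse Dux line (4.04, adjusted p = 7.75e-15). The Myl1 gene spans chr1:66924295-66947932 on the minus strand, and the promoter that the RefSeq table gives for it (GRCm38.p6, chr1:66945007-66945306) lies inside this span, at an internal start and not at the outermost one. This sequence holds 1 match of CAGCTG, an E-box of the kind MyoD binds, in capitals.
Myl1: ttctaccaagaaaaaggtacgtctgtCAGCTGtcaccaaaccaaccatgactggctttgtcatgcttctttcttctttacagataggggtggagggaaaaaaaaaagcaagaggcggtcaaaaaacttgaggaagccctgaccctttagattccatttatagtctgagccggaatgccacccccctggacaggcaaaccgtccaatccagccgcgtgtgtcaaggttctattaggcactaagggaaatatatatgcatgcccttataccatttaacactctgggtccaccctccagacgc

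CAGCTG was present in 16 of 40 sarcomere genes with a promoter in the table (40.0%), against 1835 of the 10173 genes tested with a promoter and 16.3% of all promoters. Here too a gene counted when any of its promoters held the motif, while the share of all promoters counted each promoter singly. Both strands were searched, and a promoter without the motif says nothing about the factor.

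The 4 contractile genes called higher were Ankrd1 (0.79), Tpm3 (0.61), Tagln (0.22) and Tpm1 (0.13), named after their values were seen. Tpm1, Tpm3 and Tagln encode tropomyosins and transgelin, which non-muscle cells also use, and Ankrd1 encodes a stretch-responsive protein of the sarcomere.

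**Figure D3:**
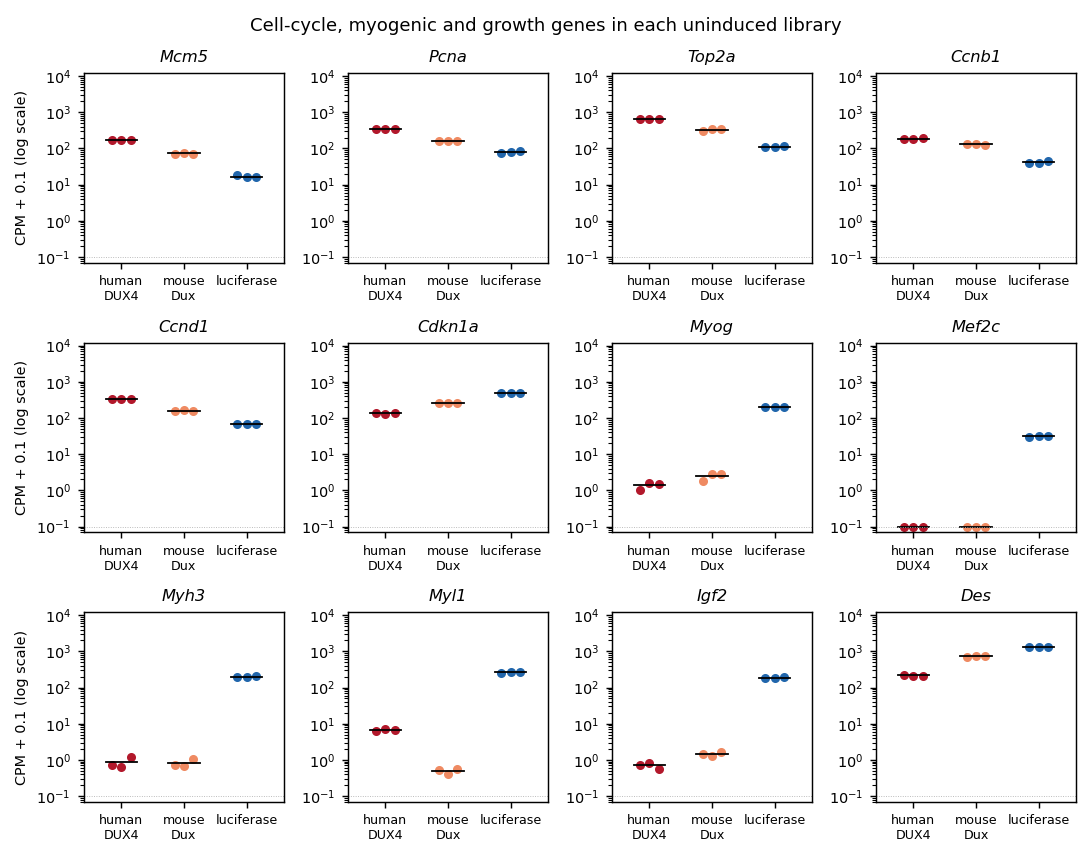
CPM of 12 cell-cycle, myogenic and growth genes in each uninduced library (points, log scale with 0.1 CPM added) with the line mean (bar), for the human DUX4, mouse Dux and luciferase lines from left to right. Mcm5, Pcna, Top2a, Ccnb1 and Ccnd1 are higher in the human DUX4 line than in the luciferase line, and Cdkn1a, Myog, Mef2c, Myh3, Myl1, Igf2 and Des are lower, with no overlap. Such a lack of overlap is shared by 99.4% of genes called at least 2-fold.

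Genes of the myoblast surface, cytoskeleton and neuromuscular synapse were also mostly lower. Of 32 tested, 28 were called lower and 3 higher, with 21 and 0 at least 2-fold and a median of -1.45. Des, the muscle intermediate filament desmin, had 225.4, 214.5 and 214.4 CPM in the human DUX4 line and 1336, 1330 and 1315 CPM in the luciferase line (-2.60, SE 0.0369). Tmem8c, or myomaker, the membrane protein that fuses myoblasts, had 0.897, 0.6572 and 0.9329 CPM against 81.91, 75.15 and 84.23 CPM in the luciferase line (-6.59, SE 0.110). Cxcr4, the receptor of the chemokine CXCL12, had 8.97, 8.676 and 9.951 CPM in the human DUX4 line, 132.5, 121.9 and 122.5 CPM in the mouse Dux line, and 123.3, 132.8 and 122.3 CPM in the luciferase line. The low Cxcr4 level was thus seen in the human DUX4 line, which differed from the mouse Dux line by -3.77 (adjusted p = 4.1e-24). As a check of the labelled cell type, Des, Myod1 and Itga7 were counted in every library of the 3 lines. Itga7, a laminin receptor subunit of muscle, averaged 111.6 CPM in the human DUX4 line. It averaged 229.5 CPM in the mouse Dux line and 417.8 CPM in the luciferase line. All 3 genes were lowest in the human DUX4 line. Other planned muscle markers were low in some lines. Myog averaged 1.27 CPM in the human DUX4 line, and Myf5 averaged 0.266 CPM in the mouse Dux line. Pax7 was near 0 in the human DUX4 and luciferase lines, and Cdh15 and Chrna1 are not reported here.

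Growth factor and imprinted genes were lower as a group. Of 47 genes, 31 were tested, with 21 called lower and 8 higher, 15 and 4 of them at least 2-fold, and a median of -0.87. Igf2, the paternally expressed insulin-like growth factor II whose locus adjoins H19, had 0.6407, 0.723 and 0.4665 CPM in the human DUX4 line, 1.396, 1.199 and 1.582 CPM in the mouse Dux line, and 183.1, 187.9 and 195.2 CPM in the luciferase line (-8.23, SE 0.0912, adjusted p = 2.94e-28). Igfbp5, a binding protein for insulin-like growth factors, had 223.7, 219.6 and 213.3 CPM against 2463, 2555 and 2408 CPM in the luciferase line (-3.50, SE 0.0400). Peg3, a paternally expressed zinc finger gene, had 39.98, 42.59 and 37.94 CPM against 524.6, 524.1 and 515.5 CPM in the luciferase line (-3.70, SE 0.0633). Maternally and paternally expressed genes were both among the lower members. Among those higher, both named after their values were seen, Igf2bp1, which binds Igf2 and other mRNAs, averaged 2.17 CPM in the human DUX4 line against 1 count in the luciferase line, a ratio of 100 (95% exact interval 17.6 to 4000). Peg12, an imprinted gene related to a GSK3 regulator, averaged 3.74 CPM in the human DUX4 line against 4 counts in the luciferase line (5.32, SE 0.383).

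Matrix genes changed strongly in both directions and had a median of -0.05, or -0.28 against doxycycline-treated luciferase libraries. Of 69 tested, 34 were called lower and 30 higher, with 24 and 18 at least 2-fold. The members with the smallest p were small leucine-rich proteoglycans, a protease and a matricellular protein, all lower. Aspn, or asporin, had 1.089, 1.577 and 0.9329 CPM in the human DUX4 line and 599.8, 617.5 and 603.8 CPM in the luciferase line (-8.96, SE 0.0724). Ogn, or osteoglycin, had 143.5, 141.2 and 146.4 CPM against 2260, 2372 and 2353 CPM in the luciferase line (-4.02, SE 0.0410). Mmp2, the gelatinase A gene, had 35.43, 35.62 and 36.77 CPM against 588.8, 600.4 and 578.9 CPM in the luciferase line (-4.04, SE 0.0402). For Ogn and Mmp2 the mouse Dux line stood near the luciferase line, at 1801 and 508.4 CPM. Nov, a matricellular protein of the CCN family, had 0.4485, 0 and 0.07774 CPM against 369.2, 402.3 and 387.9 CPM in the luciferase line, and Dcn, or decorin, differed by -7.43.

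Some collagen genes, chosen after their values were seen, differed in opposite directions. Col1a1, the alpha 1 chain of type I collagen, had 708.9, 621.8 and 651.2 CPM in the human DUX4 line, 11.86, 8.631 and 7.977 CPM in the mouse Dux line, and 6494, 6392 and 6240 CPM in the luciferase line (-3.27, SE 0.0514). Its partner chain gene Col1a2 went the other way, at 2442 CPM in the human DUX4 line and 584.4 CPM in the luciferase line (2.06). Loxl2, an enzyme that cross-links collagen, had 84.19, 84.59 and 80.15 CPM against 2.802, 2.463 and 2.29 CPM in the luciferase line (5.03, SE 0.0837). Col11a1, a minor fibrillar collagen chain, was also higher, by 4.35.

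Lipid genes were more often higher than lower. Of 41 tested lipid genes, 26 were called higher and 13 lower, with 19 and 9 at least 2-fold and a median of 0.84. Sqle, squalene epoxidase of the sterol pathway, had 842.2, 854.7 and 864.6 CPM in the human DUX4 line and 208.7, 207.6 and 216 CPM in the luciferase line (2.02, SE 0.0345). Hmgcs1, an early enzyme of the same pathway, had 908.7, 906.8 and 902 CPM against 257.8, 261.3 and 265.1 CPM (1.79, SE 0.0327). Both genes, which share control by SREBP factors, stood in the order human DUX4, mouse Dux, luciferase. Beside Lpl, the lower members chosen after their values were seen were Abca1, a cholesterol exporter (-5.66), and Fabp3, the heart fatty acid-binding protein (-5.94). Vldlr, a lipoprotein receptor, had 1 count in the human DUX4 line, an average of 65.65 CPM in the mouse Dux line and one of 31.9 CPM in the luciferase line. The ratio was 1390 (95% exact interval 250 to 55100) in favour of the luciferase line over the human DUX4 line. Adipoq and Plin1, markers of adipocytes, had at most 0.0439 CPM on average in any of the 3 lines. Lpl in the luciferase line was thus not accompanied by Adipoq or Plin1. Pparg, Cebpa and Fabp4, which were also planned as adipocyte markers, are not reported here, so no adipocyte character was judged.

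**Figure D4:**
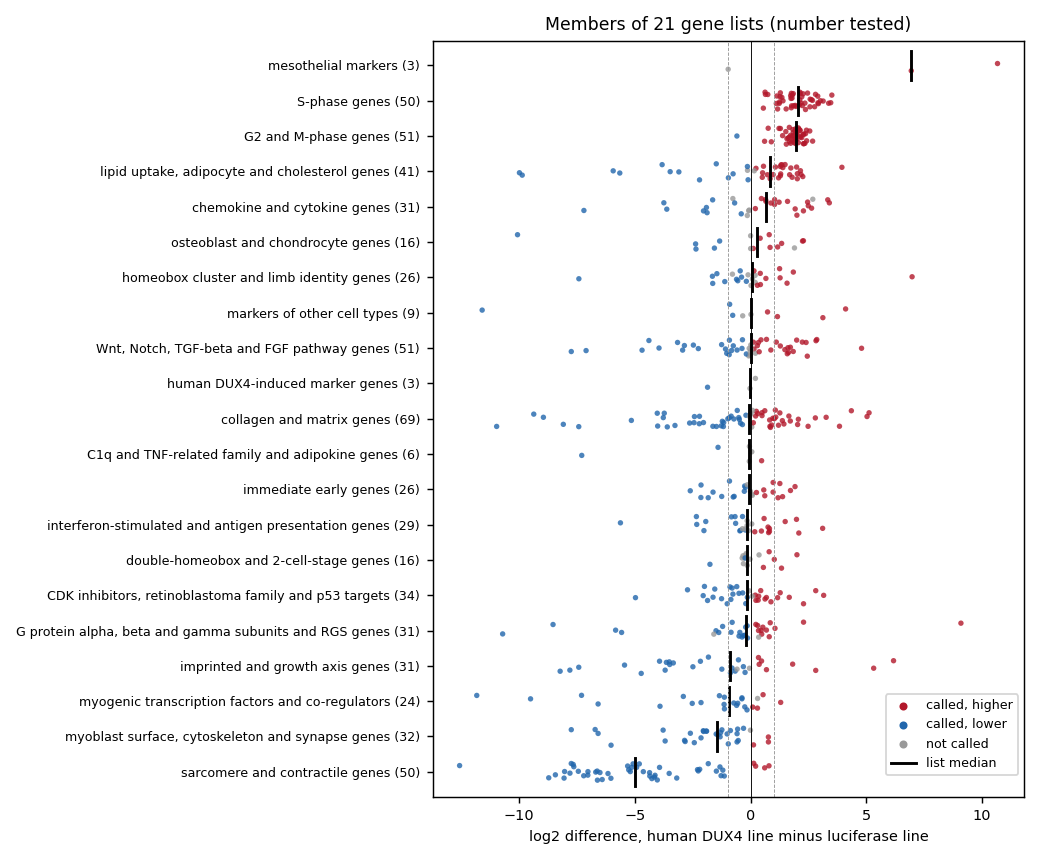
Log2 differences (human DUX4 line minus luciferase line) of every tested member of 21 gene lists, one row per list with the number tested in brackets, with called members in red (higher) or blue (lower), others in grey, and the list median as a black bar. S-phase and G2 and M-phase members lie tightly around medians of 2.03 and 1.95, and sarcomere members spread widely around -5.00, while the matrix and signalling lists spread to both sides of 0.

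Signalling genes were split between directions. Of 51 tested genes of the Wnt, Notch, TGF-beta and FGF pathways, 23 were called higher and 21 lower, with 15 and 13 at least 2-fold and a median of 0.01, or -0.14 against doxycycline-treated luciferase libraries. Inhbb, the activin beta B subunit, had 261.4, 258.8 and 276.2 CPM in the human DUX4 line, 35.51, 33.45 and 33.82 CPM in the mouse Dux line, and 37.08, 38.46 and 33.92 CPM in the luciferase line (2.86, SE 0.0456). Heyl, a transcriptional effector of Notch, had 1.794, 1.512 and 1.555 CPM against 234.3, 215.6 and 228.3 CPM in the luciferase line (-7.11, SE 0.0778). Inhbb thus set the human DUX4 line apart from both other lines, and Heyl set the luciferase line apart. Dkk2, a secreted Wnt modulator, was lower by -3.96, and Spry2, a feedback inhibitor of receptor tyrosine kinases, by -2.26. Notch1 (-2.47) and its ligand gene Dll1 (-2.94) were lower, and Wnt4 (2.83) was higher, these 3 named after their values were seen.

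Of 31 tested chemokine, cytokine and growth factor genes, 17 were called higher and 9 lower, with 12 and 7 at least 2-fold and a median of 0.65, or -0.05 against doxycycline-treated luciferase libraries. Cxcl12, the ligand of Cxcr4, had 33.57, 35.29 and 35.61 CPM in the human DUX4 line, 139.1, 138.4 and 137.6 CPM in the mouse Dux line, and 3.458, 2.652 and 3.793 CPM in the luciferase line (3.40, SE 0.0912). Ligand and receptor thus differed in opposite directions between the human DUX4 and luciferase lines. Ptn, the heparin-binding growth factor pleiotrophin, had 103.3, 107 and 114.7 CPM in the human DUX4 line and 27.36, 28.61 and 29.63 CPM in the luciferase line (1.92, SE 0.0594). Ereg, the EGF receptor ligand epiregulin, differed by 2.63, and its relatives Areg, Hbegf and Nrg1, named after their values were seen, by 3.33, 2.28 and 2.00. Il1rn, the interleukin-1 receptor antagonist, had 0.1922, 0.1972 and 0.4665 CPM against 40.9, 44.27 and 40.22 CPM in the luciferase line (-7.21, SE 0.159).

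Of 31 tested G protein subunits and regulators, 12 were called higher and 17 lower, with 3 and 7 at least 2-fold and a median of -0.21. Gnai1 was the only tested alpha subunit gene at least 2-fold higher, while its paralogs Gnai2 and Gnai3 were higher by 0.53 and 0.34. Rgs2, which speeds the switching off of Gq, had 0.3204, 0.5258 and 0.5442 CPM in the human DUX4 line and 172.7, 180.8 and 167.2 CPM in the luciferase line (-8.54, SE 0.0986). Gng11, a gamma subunit, differed by -5.58 and Rgs3 by -1.38. Of 16 matched genes of the C1q and TNF-related family and adipokines, 6 were tested, with 1 called higher and 2 lower. C1qtnf3 and C1qtnf1 (-1.41, SE 0.0438) were the lower ones, Nampt, an enzyme of NAD synthesis also called visfatin, was higher by 0.47, and C1qtnf6, Adipor1 and Adipor2 did not pass the test, at -0.06, -0.05 and 0.05.

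A set of genes was expressed in one line and near silent in the other. At least 1 CPM in the human DUX4 line with at most 3 counts summed over the luciferase libraries was found for 81 genes, of which 18 reached 10 CPM. The reverse was found for 220 genes, of which 52 reached 10 CPM. The mouse Dux line had at most 3 counts in 39 of the 81 and at least 1 CPM in 20. Of the 220, it had at most 3 counts in 76 and at least 1 CPM in 57. Doxycycline-treated luciferase libraries, which are separate cultures of the luciferase clone, had at most 3 counts in 69 of the 81 and at least 1 CPM in 197 of the 220.

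Among genes near silent in the luciferase line, Tnfaip6, a secreted hyaluronan-binding protein, had 75.8, 71.31 and 78.75 CPM in the human DUX4 line and no count in the luciferase line, at least 1170-fold higher. Slitrk6, a neuronal membrane protein, had 36.52, 36.21 and 36.38 CPM and was at least 565-fold higher, and Clec12a, a C-type lectin receptor of myeloid cells, had 34.73, 31.22 and 33.2 CPM and was at least 513-fold higher. These genes were also near 0 in the mouse Dux line, at no more than 0.0872 CPM in any library. Bpifb4, a secreted protein of the BPI fold family, had 51.19, 54.16 and 52.79 CPM against 1 count in the luciferase line, a ratio of 2450 (95% exact interval 440 to 97000, counting error only). Stox2, Ripk3 and Dach1 were at least 368-fold, 272-fold and 215-fold higher. Ripk3 is the kinase of necroptosis and Dach1 a transcriptional co-repressor. Ripk3 was also expressed in the mouse Dux line, at 6.456, 5.275 and 5.01 CPM.

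Among genes near silent in the human DUX4 line, Ctsc, the lysosomal protease cathepsin C, had no count there and 87.4, 95.1 and 88.52 CPM in the luciferase line, at least 1320-fold lower. Fibin, a secreted protein first described in fin bud development in zebrafish, had no count and 89.07, 89.29 and 89.1 CPM, at least 1300-fold lower. Robo1, a receptor for Slit guidance cues, had 2 counts over the human DUX4 libraries and 161.5, 162.4 and 161.7 CPM in the luciferase line, a ratio of 3540 (95% exact interval 979 to 29200) in favour of the luciferase line. The mouse Dux line was low as well, averaging 0.180 CPM for Ctsc, 0.111 CPM for Fibin and 0.198 CPM for Robo1. Car2, carbonic anhydrase 2, had 1 count in the human DUX4 line, 25.04, 19.96 and 22.88 CPM in the mouse Dux line, and 76.85, 82.92 and 79.15 CPM in the luciferase line, a ratio of 3480 (interval 624 to 137000) in favour of the luciferase line over the human DUX4 line. Epha7, an ephrin receptor, was at least 525-fold lower. Cdh5, the cadherin of endothelial junctions, and Alx1, a homeobox gene of craniofacial mesenchyme, were at least 381-fold and 369-fold lower, and had no count in the mouse Dux line.

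Of 24 markers of other cell types, 6 had no count in either line, among them Epcam, Krt18 and Sox10, and 9 were tested, with 4 called higher and 3 lower, and the list summed to 292, 299 and 295 CPM in the human DUX4 libraries and to 478, 489 and 474 CPM in the luciferase libraries. Much of this sum was Ly6a (-0.78, SE 0.0390) and Cspg4 (-0.91, SE 0.0783), surface proteins of mesenchymal and pericyte cells, and Tubb3 (0.73, SE 0.0671) was the neuronal tubulin. Cdh5 reached 24.32, 26.4 and 28.12 CPM in the luciferase line, while the other endothelial markers Pecam1, Kdr, Tie1 and Emcn had at most 0.138 CPM on average in either line. Csf1r, the macrophage growth factor receptor, had 2.691, 2.629 and 1.633 CPM in the human DUX4 line and 0.05962, 0 and 0.3578 CPM in the luciferase line (4.10, SE 0.473), while Ptprc, Adgre1 and C1qa had at most 0.0421 CPM on average. The part of other cells in these results was not tested, and both lines are clonal.

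Of 9 mesothelial genes matched, 3 were tested, and Msln and Bnc1 were called higher. Bnc1, a zinc finger factor of mesothelial and squamous cells, had 15.19, 13.28 and 12.52 CPM in the human DUX4 line and no count in the luciferase line, at least 213-fold higher, and Krt19 did not pass the test (-0.97, adjusted p = 0.157). Wt1, Upk3b and Upk1b had at most 0.334 CPM on average, and Lrrn4, Krt7 and Gpm6a had no count in either line. The list summed to 238, 223 and 217 CPM in the human DUX4 libraries and to 2.09, 2.08 and 2.22 CPM in the luciferase libraries, nearly all of it Msln. Of 16 tested osteoblast and chondrocyte genes, 8 were called higher and 5 lower, with 4 and 5 at least 2-fold. Dlx3, a homeobox gene of bone and skin, was higher by 2.24 and Grem1, a BMP antagonist, by 1.17, while Sox9, the chondrocyte regulator, was lower by -1.34 and Tnfrsf11b, or osteoprotegerin, was at least 132-fold lower. The median was 0.26, or 0.41 with Tnfrsf11b at its bound and 3 genes with at most 3 counts in both lines left out, and it was -0.10 against doxycycline-treated luciferase libraries.

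Most marker genes of human DUX4 induction were silent or near silent in the uninduced human DUX4 line. Of 19 such genes matched, 10 had no count in either line, among them Ctsq, C8b, Pcp4, Gad1 and Slc34a2, where 3 counts over the group would correspond to 0.0686 CPM in the human DUX4 line and 0.0644 CPM in the luciferase line. Uts2, the urotensin II gene, had 2, 4 and 2 counts in the human DUX4 libraries and no count in the luciferase libraries, and the mouse Dux libraries had 0, 0 and 2. Only 3 markers were tested. Cdkn1a was lower as given above, and Hey1, a Notch effector (0.21, SE 0.175, adjusted p = 0.280), and Pramef25, a PRAME family gene (-0.03, SE 0.399, adjusted p = 0.954), did not pass the test. Transgene reads themselves were not analysed here.

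The double-homeobox and 2-cell-stage genes showed no common shift. Of 31 matched genes 16 were tested, with 5 called higher and 2 lower, 3 and 1 at least 2-fold, and a median of -0.17. Zscan4c, a telomere-associated zinc finger gene of the early embryo, had 40, 37 and 43 counts in the human DUX4 libraries and 57, 51 and 53 counts in the larger luciferase libraries, and none of the 5 tested Zscan4 copies passed the test, with differences of -0.37 to -0.19. Dux itself had 3, 0 and 1 counts against 0, 2 and 1 counts. Duxbl3, a mouse double-homeobox relative, had 27.1, 24.32 and 28.69 CPM in the human DUX4 line, 0.7851, 1.439 and 0.3956 CPM in the mouse Dux line, and 7.512, 6.883 and 5.367 CPM in the luciferase line (2.00, SE 0.118). Duxbl3, the Zscan4 genes and the gene model Gm8300 (1.33, SE 0.134) belong to families of near-identical copies, so which copy the reads came from is uncertain. Eif1a, a translation initiation factor expressed in all cells, and Eif1ad, which shares its domain, were higher by 0.55 and 0.80.

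Interferon-stimulated and antigen presentation genes had no common direction, with 11 called higher and 12 lower of 29 tested, 4 and 5 at least 2-fold, and a median of -0.15. H2-K1, a class I antigen-presenting chain, had 54.72, 54.03 and 54.65 CPM in the human DUX4 line and 13.65, 12.31 and 12.52 CPM in the luciferase line (2.08, SE 0.0633), while its partner B2m was lower (-0.83, SE 0.0345). Tap2, a subunit of the peptide transporter, was higher by 1.49, and Parp14, an ADP-ribosyltransferase, had 14.93, 13.01 and 14.62 CPM against 1.252, 2.021 and 1.646 CPM in the luciferase line (3.11, SE 0.156).

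Genes of body position came from the same homeobox clusters in both lines. Of 49 homeobox cluster and limb identity genes, 26 were tested, with 10 called higher and 10 lower, 5 and 5 at least 2-fold, and a median of 0.05, or -0.11 against doxycycline-treated luciferase libraries. Genes of the HoxA and HoxC clusters were counted in both lines, and those of the HoxB and HoxD clusters had at most 0.0259 CPM on average in either. Tbx18, a T-box factor of mesenchyme, had 214.8, 203.5 and 198.2 CPM in the human DUX4 line and 56.93, 57.15 and 57.61 CPM in the luciferase line (1.85, SE 0.0411), and Tbx15 was higher by 1.27. Prrx1, a homeobox factor of limb mesenchyme, had 105.1, 104.4 and 110 CPM against 341.6, 335.3 and 326.5 CPM in the luciferase line (-1.65, SE 0.0379), and Hoxc10 was lower by -1.12. Tbx4 was at 0 in the human DUX4 and mouse Dux lines and Hoxc12 at 0 in the luciferase line, both named after their values were seen.

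Immediate early genes, which respond within minutes to serum and handling, were split as well, with 10 called higher and 12 lower of 26, 5 and 6 at least 2-fold, and a median of -0.08, or -0.45 against doxycycline-treated luciferase libraries. Jun, an AP-1 subunit, had 66.76, 69.93 and 74.87 CPM in the human DUX4 line and 311.1, 315.2 and 311.2 CPM in the luciferase line (-2.15, SE 0.0455). Its family member Junb had 188.1, 194.1 and 216.7 CPM against 60.57, 57.02 and 63.91 CPM (1.72, SE 0.0537). Btg2, an antiproliferative gene, was lower by -1.63, and Ier2 was higher by 1.38.

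By position in the genome, chromosome 4 stood apart. Its 820 tested genes had a median log2 difference of -0.58, with quartiles of -1.14 and -0.14, and 20.6% of them lay above 0. All 13 of its windows of 10 Mb with at least 20 tested genes had a negative median, from -0.96 to -0.43, and 11 of these were at -0.5 or below. Of the 20 most abundant genes of the chromosome, 17 had a lower mean in the human DUX4 line. Cdc42, a small GTPase of cell polarity, averaged 505.8 ± 3.05 CPM in the human DUX4 line and 761.4 ± 5.99 CPM in the luciferase line (SD, n = 3 each), and Vcp, a ubiquitous ATPase, averaged 818.3 ± 22.2 CPM against 1202 ± 54.2 CPM. The exceptions were Tnc, Prdx1 and Ybx1, higher by 1.03, 0.62 and 0.12. For chromosome 4 the human DUX4 line differed from the mouse Dux line by a median of -0.08, and the mouse Dux line from the luciferase line by -0.52, comparisons that share libraries with the main one. DNA copy number was not measured here, and its part in the shift was not tested.

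Chromosomes 5 and 17 were shifted the other way, with medians of 0.24 and 0.26 and 63.5% and 66.4% of genes above 0. All 9 windows of chromosome 17 had a positive median. The remaining chromosomes had medians between -0.13 and 0.08. Of the 218 windows described in the genome, 13 were on chromosome 4, and 4 of the others had a median of at least 0.5 in size. These were chromosome 8 from 80 to 90 Mb (0.66, 84 genes), chromosome 13 from 100 to 110 Mb (0.61, 40 genes) and from 20 to 30 Mb (-0.50, 68 genes), and chromosome X from 140 to 150 Mb (-1.09, 29 genes). In the chromosome 8 window the mouse Dux line was higher still, by 1.57 over the luciferase line. Its median over the luciferase line was 0.12 for chromosome 13 from 100 to 110 Mb and -0.58 from 20 to 30 Mb. For the chromosome X window it was -1.33, and over chromosomes 5 and 17 it was -0.04 and 0.09.

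**Figure D5:**
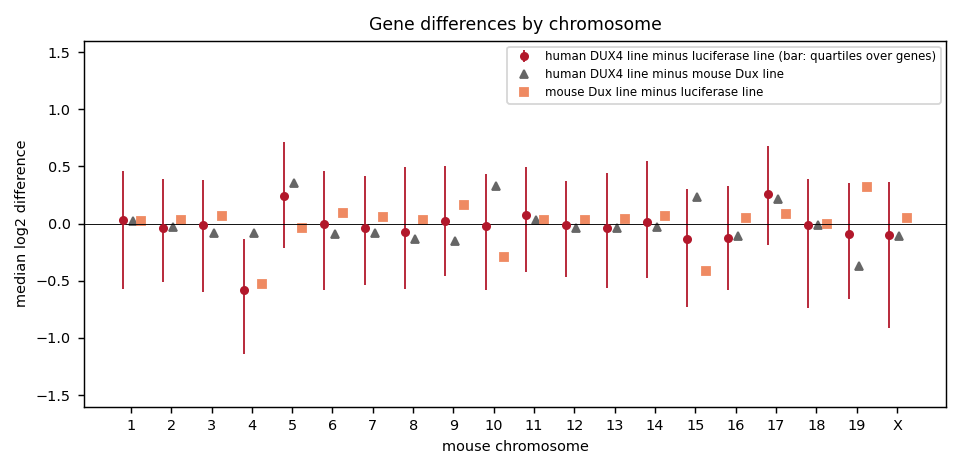
Median log2 difference over the tested genes of each mouse chromosome, for the human DUX4 line minus the luciferase line (circles, with bars from the lower to the upper quartile over genes), the human DUX4 line minus the mouse Dux line (triangles) and the mouse Dux line minus the luciferase line (squares). Chromosome 4 is at -0.58 for the human DUX4 line and -0.52 for the mouse Dux line, both relative to the luciferase line, and chromosomes 5 and 17 lie above 0 at 0.24 and 0.26.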

How the data were processed

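Polyadenylated RNA was sequenced, and the deposited values were read counts per gene, whole numbers not normalized. The build mm10 and the tools TopHat2 2.0.12, Bowtie2 2.2.3 and CASAVA are named in the submitters' processing notes. Which program counted reads, with which gene models and strand setting, was not given in the sources used here, and overlapping, antisense and near-identical genes are uncertain. The table held 24028 genes, 5017 without a count. In 27 genes a symbol turned into a date was restored from the gene identifier, and 5 had no symbol. Of the identifiers, 23968 (99.8%) matched RefSeq GRCm38.p6, which gave positions and promoters. One protocol sentence on doxycycline is shared by all labels, so treatment was taken from each sample's own tag.

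Genes were kept by filterByExpr by group. The quasi-likelihood F test of edgeR 4.0.16 (R 4.3.3, two-sided, TMM, Benjamini-Hochberg over 12769 genes) was fitted to the 9 uninduced libraries with one mean per line and tested on simulated data. Few genes differed in the simulated data, so they cannot show how the scaling behaves when most genes differ, as here. The biological coefficient of variation was 3.28%. A gene was called at an adjusted p under 0.05, with 2-fold as a size rule. Depth per library was 12871469 to 17179642 counts in the lines compared. Replicate numbers were not used as a block. Sequencing was multiplexed, per the labels' protocols, and lanes by library were not used here. Alternatives were other scalings, filters, libraries and tests, with DESeq2 1.42.0 and limma 3.58.1 installed beside edgeR.

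Folds against a line with no count use a floor of 3 counts over the group, and with 1 to 3 counts a ratio with its 95% exact (Clopper-Pearson) interval, for counting error only. Named genes were the 6 markers, the 8 largest differences each way among called genes of at least 10 CPM in the higher line whose libraries did not overlap, gene models aside, the 4 most abundant genes each way with at most 3 counts in the other line, and up to 4 called members per list by p, with all members of lists of 5 or fewer tested. Other genes lie outside this rule. Planned cell type markers aside, they are to be read as chosen after their values were seen, even where this is not said. A few genes that the rule names are not reported here. Members, markers and the 21 lists were chosen with earlier results of these data known, so counts over lists are descriptions and no list was tested.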

Additional observations from a re-analysis of the deposited data

Results flagged for a closer look

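Of 95 named genes, 3 were called at least 2-fold on opposite sides of the luciferase line, higher in the human DUX4 line and lower in the mouse Dux line, which is why they are singled out. How common such genes are among all genes tested was not counted, so the number describes the named genes alone. The difference between the human DUX4 and mouse Dux lines was itself tested in edgeR, and passing that test was part of the rule. Duxbl3 differed by 4.87 on the log2 scale between the human DUX4 and mouse Dux lines (adjusted p = 1.87e-17), at 2.00 and -2.87 from the luciferase line. Parp14 differed by 4.16 (adjusted p = 6.33e-16), at 3.11 and -1.05. Ptn differed by 4.04 (adjusted p = 4.9e-23), at 1.92 and -2.12. All 3 human DUX4 libraries lay above every mouse Dux library for each of them. The rule that picked these genes all but fixed this, so it adds no support. Reads of Duxbl3 can be shared with its near-identical copies.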

How the results depend on the processing

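Counts of calls kept their size, within 1.5 times, under 17 of 18 alternatives. Tested against a 1.5-fold change (glmTreat), 2097 genes were called higher and 2582 lower. Without 1 replicate at a time, 4856 to 5154 genes were called higher and 5118 to 5438 lower, with 1415 to 1454 and 2030 to 2085 at least 2-fold, and this range includes the fits without replicate 1 of the mouse Dux line. DESeq2 called 4784 higher and 4968 lower. The numbers of the replicates showed no sign of pairing the samples: deviations of same-numbered human DUX4 and luciferase libraries correlated at 0.008, -0.014 and 0.056. Because the replicates were very alike, these values cannot exclude a shared day or batch. With the replicate block, 4960 genes were called higher and 5214 lower, with 1409 and 2008 at least 2-fold.

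Among 95 named genes, Pramef25, never called, changed sign with library size alone (0.0091) and without human DUX4 replicate 2 (0.07), luciferase replicate 2 (0.20) or luciferase replicate 3 (0.01), and ranged from -0.2723 to 0.2025 without 1 replicate at a time. Eif1a and Nampt were not called against 1.5-fold. Hey1 was called against doxycycline-treated luciferase libraries (0.75), and Krt19 without luciferase replicate 1 (-1.40). The cause was not tested. The S-phase, G2 and M-phase, sarcomere, myogenic, surface, growth and lipid medians kept their sign in 17 alternatives. Against doxycycline-treated luciferase libraries the chemokine (-0.05), osteoblast (-0.10), Wnt and Notch (-0.14), homeobox (-0.11) and other-cell-type (-0.12) medians changed sign. The immediate early (-0.45), matrix (-0.28), G protein (-0.09) and interferon (-0.05) medians moved by more than 1.5 times. So did the human DUX4 marker (-0.57), C1q family (-0.09) and G2 and M-phase (4.40) medians. Over the 17 alternatives the other-cell-type median changed sign in 8 and the human DUX4 marker median in 5. The Wnt and Notch median did so in 4 and the homeobox median in 3. The double-homeobox, osteoblast and chemokine medians did so in 1 each. The chromosome 4 median ranged from -0.60 to -0.52 over 13 alternatives, with -0.52 for genes of at least 10 CPM in both lines, chosen after seeing the data. Depth limits genes near 0, where 3 counts in 1 library are worth 0.179 to 0.233 CPM.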
